A study of Zea mays with 9 samples.

Results

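The 6 genes described here encode the gamma, beta and delta zeins of maize, and they were followed in endosperm of WT and of thk1 mutants. They are the 27-kDa gamma zein (Zm00001d020592, symbol gz27), the 50-kDa gamma zein (Zm00001d020591, gz50), the 16-kDa gamma zein (Zm00001d005793, gz16), the 15-kDa beta zein (Zm00001d035760, bz15), the 18-kDa delta zein (Zm00001d037436, dzs18) and the 10-kDa delta zein (Zm00001d045937, dzs10). They were chosen by identifier, as 6 of 46430 identifiers in the count files, which hold no gene names, and all 6 were among the 23529 genes that passed the filter on low counts. Poly(A) RNA was counted in 9 libraries of endosperm dissected at 19 DAP (days after pollination) from self-pollinated plants grown in the field. The zein names were given with the identifiers, the symbols are those RefSeq lists for zeins of these sizes, and the pairing of name and identifier could not be checked in the files or the reference. The groups were WT, titled B73, the homozygous mutant thk1_iso15 (-/-), here thk1-iso15, and the homozygous mutant thk1_iso17 (-/-), here thk1-iso17. All 3 groups are of the B73 inbred background, with 3 replicate libraries each. The sources used here do not give the plants or kernels behind a replicate, so p-values rest on library-to-library spread.

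Zeins are the prolamins of maize, the main storage proteins of the kernel. They are made by the starchy endosperm and deposited in protein bodies, which bud within the endoplasmic reticulum. The cysteine-rich gamma and beta zeins start these bodies and form their outer shell, while alpha and delta zeins fill the core. The beta and delta zeins are rich in methionine, which is scarce in maize protein. The 27-kDa and 16-kDa gamma zein genes are related copies left by an ancient duplication of the maize genome. The genes listed as gz50 and gz27 are direct neighbours in RefSeq's gene table, whose assembly (Zm-B73-REFERENCE-NAM-5.0) is not that of the counts. The gene thk1 (thick aleurone1) encodes NOT1, the scaffold of a complex that removes poly(A) tails from messenger RNA, and its mutants form more than the normal single layer of aleurone at the endosperm surface.

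Gene counts ranged from 21871601 to 76651742 per library. The 95% Wilson interval of a zein's share of gene counts was at most 0.0115 percentage points to either side, so counting error was small beside the spread between replicates. The tissue label was checked by the zeins themselves, which together held between 11.7% and 25.7% of gene counts in every library. No marker of aleurone, embryo or pericarp, and no other gene of the zein pathway, could be matched to an identifier, so those lists give no value, and the targeted gene is not analysed here. Scaling factors (TMM, trimmed mean of M-values) did not overlap between genotypes, at 0.785 to 0.926 in WT and 0.946 to 1.21 in the mutants. Annotated non-coding RNAs held 0.119% of gene counts in thk1-iso17 replicate 3 and between 0.0138% and 0.0378% in the other 8 libraries. Entries not uniquely aligned made up 27.0% of thk1-iso15 replicate 3 and 16.8% to 22.6% of the others. As whole endosperm was sampled, fewer zein-making cells and less zein RNA per cell cannot be told apart.

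Zein transcripts were lower in thk1 endosperm. With both alleles set against WT, 5 of the 6 zeins fell, to between 47.9% and 54.1% of the WT level, and none rose (edgeR quasi-likelihood test, adjusted p under 0.05 over all 23529 genes). Among all genes tested, 10% were called lower in this comparison. The exception was the 50-kDa gamma zein, at 75.8% of WT with an interval that spans no change. The median log2 fold change of the 6 was -0.94, against 0.02 over all genes tested. Among the 100 most abundant genes, with these zeins taken out of the 100, the median was -0.23. Leaving out WT replicate 1, the library with the highest summed zein share, left 0 of 6 called, and the median log2 fold change of the 6 was then -0.79.

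The 27-kDa gamma zein, which is needed to start protein bodies, stood at 105922, 121077 and 72579 CPM (counts scaled by TMM to a common library size) in WT replicates 1, 2 and 3. In thk1-iso15 it stood at 54216, 67972 and 47395 CPM, and in thk1-iso17 at 51607, 64723 and 38202 CPM. All 6 mutant libraries lay below the lowest WT library on this scale. In thk1-iso15 it had a log2 fold change against WT of -0.82 ± 0.31 (SE), with an edgeR adjusted p of 0.0958. In thk1-iso17 the value was -0.96 ± 0.31 with an adjusted p of 0.0623, so neither allele alone passed. With both alleles together it was -0.89 (SE 0.26, edgeR adjusted p = 0.0334). DESeq2 called it in each allele, with adjusted p of 0.00811 and 0.00155.

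The 16-kDa gamma zein, also a protein of the outer shell, was called lower in each allele. Its level was 60958, 57439 and 41317 CPM in WT, 23522, 29760 and 23676 CPM in thk1-iso15, and 24373, 33436 and 18386 CPM in thk1-iso17. No mutant library reached the lowest WT library. Relative to WT it fell by 1.05 ± 0.29 (SE) log2 units in thk1-iso15 (edgeR adjusted p = 0.0326) and by 1.07 ± 0.29 in thk1-iso17 (edgeR adjusted p = 0.0325). With both alleles the log2 fold change was -1.06 ± 0.24 (edgeR adjusted p = 0.0115).

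The 50-kDa gamma zein, the largest of the family, did not pass in any comparison and differed widely within genotypes. It stood at 6314, 20797 and 10903 CPM in WT, 6232, 9944 and 16957 CPM in thk1-iso15, and 7740, 7313 and 10016 CPM in thk1-iso17. The groups overlapped, and WT replicate 1 lay near the lowest of all libraries while WT replicate 2 was the highest. Its coefficient of variation in WT was 58.4%, against 24.8% for the 27-kDa and 19.7% for the 16-kDa gamma zein. With both alleles the log2 fold change was -0.40, with a 95% interval from -1.22 to 0.42 (edgeR adjusted p = 0.469). Without WT replicate 2 it was 0.17.

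**Figure D1:**
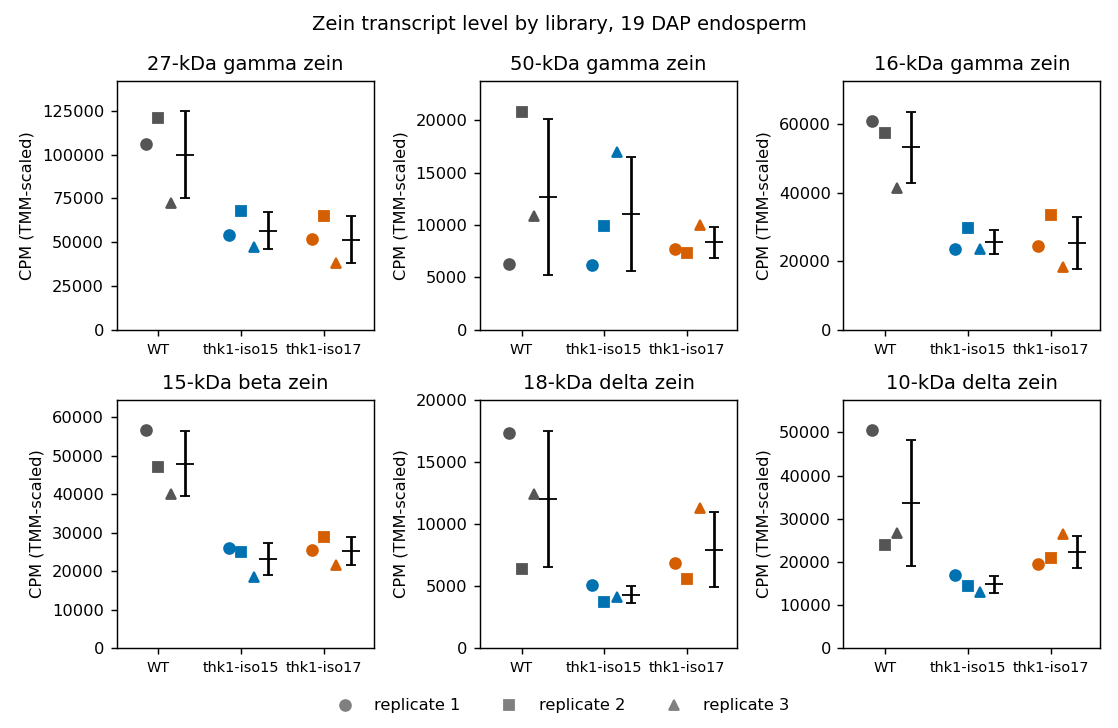
Level of each zein in the 9 libraries, in TMM-scaled CPM (vertical axis from 0), with the genotype on the horizontal axis and 1 point per library, shaped by replicate number. The black bar beside each group is the mean ± SD (n = 3). Mutant points lie below all WT points for the 27-kDa and 16-kDa gamma and the 15-kDa beta zein, and overlap WT for the other 3.

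The 15-kDa beta zein, which shares the shell of the protein body with the gamma zeins, fell in both alleles. Its level was 56778, 46932 and 39987 CPM in WT, 26092, 25079 and 18466 CPM in thk1-iso15, and 25479, 28821 and 21534 CPM in thk1-iso17. The WT and mutant libraries did not overlap. It fell by 1.05 ± 0.26 (SE) log2 units in thk1-iso15 (edgeR adjusted p = 0.0217) and by 0.92 ± 0.25 in thk1-iso17 (edgeR adjusted p = 0.0356). With both alleles the log2 fold change was -0.98 ± 0.21 (edgeR adjusted p = 0.00965). Of the 6 zeins it had the smallest adjusted p in thk1-iso15 and in the comparison of both alleles with WT.

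The delta zeins, the methionine-rich proteins of the protein body core, fell in thk1-iso15. The 18-kDa delta zein stood at 17305, 6400 and 12414 CPM in WT and at 5066, 3766 and 4101 CPM in thk1-iso15, where every library lay below WT. In thk1-iso17 it stood at 6882, 5610 and 11316 CPM, and these values overlapped WT. Its log2 fold change of -1.48 ± 0.37 (SE) in thk1-iso15 was the largest fall of the 6 (edgeR adjusted p = 0.0228). For thk1-iso17 the log2 fold change was -0.60 ± 0.36 (edgeR adjusted p = 0.284).

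The 10-kDa delta zein had the same order of groups. It stood at 50499, 23929 and 26657 CPM in WT, 17016, 14488 and 13117 CPM in thk1-iso15, and 19526, 20940 and 26491 CPM in thk1-iso17. The thk1-iso15 libraries lay below all others, and WT replicate 1 was far above the other WT libraries. Against WT it fell by 1.18 ± 0.31 (SE) log2 units in thk1-iso15 (edgeR adjusted p = 0.0280). For thk1-iso17 the log2 fold change was -0.59 ± 0.31 (edgeR adjusted p = 0.214). With both alleles it was -0.89 (SE 0.26, edgeR adjusted p = 0.0324), and -1.04 (SE 0.30, edgeR adjusted p = 0.0325) for the 18-kDa delta zein.

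In thk1-iso17 the highest library for both delta zeins was replicate 3, which also held the largest share of non-coding RNA. The part of this difference in the delta zein values was not tested. Without that library the log2 fold changes against WT were -0.95 for the 18-kDa and -0.74 for the 10-kDa delta zein (edgeR adjusted p = 0.102 and 0.168). Without WT replicate 1 they were -0.25 and -0.19 (edgeR adjusted p = 0.708 and 0.693).

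By allele, 4 of the 6 zeins were called lower in thk1-iso15 (the 16-kDa gamma, 15-kDa beta and both delta zeins), where 6.82% of all genes were called lower. In thk1-iso17, 2 of the 6 were called lower (the 16-kDa gamma and 15-kDa beta zeins), against 6.29% of all genes. Of the 100 most abundant genes, these 6 included, 18 were called lower in thk1-iso15, 28 in thk1-iso17 and 32 with both alleles. Of those 100 genes, 6 were called higher in thk1-iso15, 7 in thk1-iso17 and 9 with both alleles. None of the 6 zeins was called higher in either allele. For thk1-iso15 the median log2 fold change of the 6 was -1.05, against 0.01 over all genes. For thk1-iso17 these medians were -0.76 and 0.02. With these zeins taken out of them, the 100 most abundant genes had a median of -0.17 in thk1-iso15 and -0.36 in thk1-iso17. The alleles share the 3 WT libraries, so these counts are not independent of each other.

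Some calls changed when 1 library was left out. In thk1-iso15 the count of 4 stayed at 4 without any 1 library of thk1-iso17 and was 3 without WT replicate 2 or 3. It became 0 without WT replicate 1, 2 without thk1-iso15 replicate 1, 0 without its replicate 2 and 1 without its replicate 3. In that order, calls over all genes in either direction went from 3642 to 1440, 1988, 1548 and 3944. In thk1-iso17 the count of 2 stayed at 2 without thk1-iso15 replicate 1 or 3 or thk1-iso17 replicate 2. It became 0 without WT replicate 1 or 2 or without thk1-iso17 replicate 1 or 3, and 1 without WT replicate 3 or thk1-iso15 replicate 2. In that order, calls over all genes went from 3352 to 1376, 1754, 1176, 3946, 1534 and 2820. With both alleles the count of 5 was 4 without WT replicate 2 or 3, thk1-iso15 replicate 1 or thk1-iso17 replicate 3. It became 0 without WT replicate 1, 2 without thk1-iso15 replicate 3 or thk1-iso17 replicate 1, and 3 without thk1-iso15 replicate 2 or thk1-iso17 replicate 2. In that order, calls over all genes went from 4943 to 2464, 5456, 3353, 3682 and 4485. With both alleles the 16-kDa gamma and the 15-kDa beta zein were each called in 19 of 20 settings, the exception being the fit without WT replicate 1 (edgeR adjusted p = 0.0570 and 0.0543). Apart from the 50-kDa gamma zein, the fold changes against WT kept a negative sign when any 1 library was left out. For the 10-kDa delta zein, leaving out WT replicate 1 moved the log2 fold change from -1.18 to -0.77 in thk1-iso15 and from -0.89 to -0.48 with both alleles. For the 18-kDa delta zein it moved from -1.04 to -0.69 with both alleles.

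**Figure D2:**
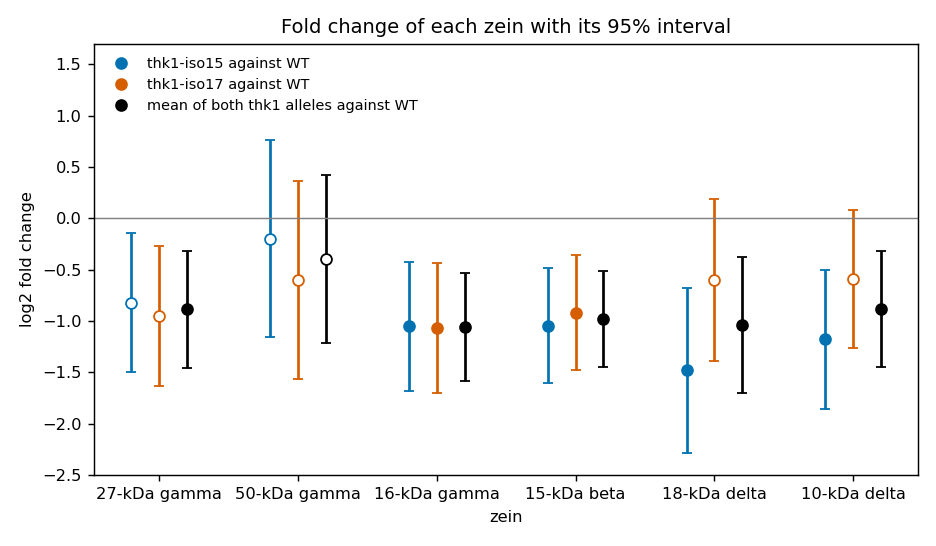
Log2 fold change of each zein against WT (vertical axis) with its 95% interval from the edgeR fit, for thk1-iso15, thk1-iso17 and the mean of both alleles. Filled points passed the adjusted p threshold of 0.05 and open points did not. All 18 points are below 0. The intervals of the 50-kDa gamma zein span 0 in each comparison, as do those of both delta zeins in thk1-iso17.

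Between the alleles none of the 6 zeins was called (edgeR, with 1 of 6 at an unadjusted p under 0.05), where 0.111% of all genes were called in either direction. DESeq2 and voom also called 0. The 18-kDa delta zein had the largest difference, a log2 value of 0.88 higher in thk1-iso17 (95% interval 0.08 to 1.68, unadjusted p = 0.0331, edgeR adjusted p = 0.686). For the 10-kDa delta zein the difference was 0.59 (95% interval -0.09 to 1.26, edgeR adjusted p = 0.776). All 3 thk1-iso17 libraries lay above all 3 thk1-iso15 libraries in both delta zeins. How many of all genes tested separated the alleles in this way was not counted, so this is a description. Without thk1-iso17 replicate 3 these differences were 0.53 and 0.44. For the 27-kDa, 16-kDa and 15-kDa zeins the differences were -0.13, -0.01 and 0.12, with 95% intervals reaching at most 0.81 from 0. That the delta zeins passed in thk1-iso15 and not in thk1-iso17 is thus not shown to be a difference between the alleles.

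As a share of all gene counts, the 6 zeins together took 22.1% ± 3.44 in WT (SD, n = 3 per genotype). They took 14.0% ± 2.07 in thk1-iso15 and 15.9% ± 0.661 in thk1-iso17. The WT libraries ranged from 18.9% to 25.7% and the mutant libraries from 11.7% to 16.6%, without overlap. Of the fall of 7.14 percentage points from WT to the mean of the 6 mutant libraries, the 27-kDa gamma zein made up 37.0%, the 16-kDa gamma 25.0%, the 15-kDa beta 20.5%, the 10-kDa delta 12.0%, the 18-kDa delta 5.13% and the 50-kDa gamma 0.395%. The gamma zeins summed to 14.0% ± 2.19 of gene counts in WT, against 9.59% ± 1.48 in thk1-iso15 and 9.59% ± 1.42 in thk1-iso17. These sums were not tested, as the 6 genes were chosen with earlier results known. Counts were not scaled for gene length, so the shares describe each gene across libraries and not the abundance of one zein beside another.

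Tested singly on this scale, the 16-kDa gamma zein fell from 4.53% ± 0.721 of gene counts in WT (SD, n = 3) to 2.74% ± 0.486 in the mutants (SD, n = 6). The two-sided exact permutation p was 0.0119, the smallest that 6 against 3 libraries allow. The 15-kDa beta zein fell from 4.10% ± 0.700 to 2.63% ± 0.465, with the same exact permutation p of 0.0119. In both, every mutant library lay below every WT library, as did 2.55% of all genes tested. The 27-kDa gamma zein went from 8.45% ± 1.51 to 5.81% ± 1.06 (exact permutation p = 0.0238), with 5 of 6 mutant libraries below the lowest WT value. Its p was no longer under 0.05 without WT replicate 1 or 2, thk1-iso15 replicate 1 or thk1-iso17 replicate 1. With 2 WT libraries the smallest exact permutation p is 0.0357, so only the most extreme split could pass there. Without WT replicate 1 the exact permutation p of the 27-kDa gamma zein was 0.107. For the 10-kDa delta, 18-kDa delta and 50-kDa gamma zeins the exact permutation p was 0.238, 0.274 and 0.952. These 6 p-values are unadjusted. On the TMM scale 3 of the 6 zeins, the 27-kDa, 16-kDa and 15-kDa, had all mutant libraries below all WT libraries, as did 11.7% of all genes.

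**Figure D3:**
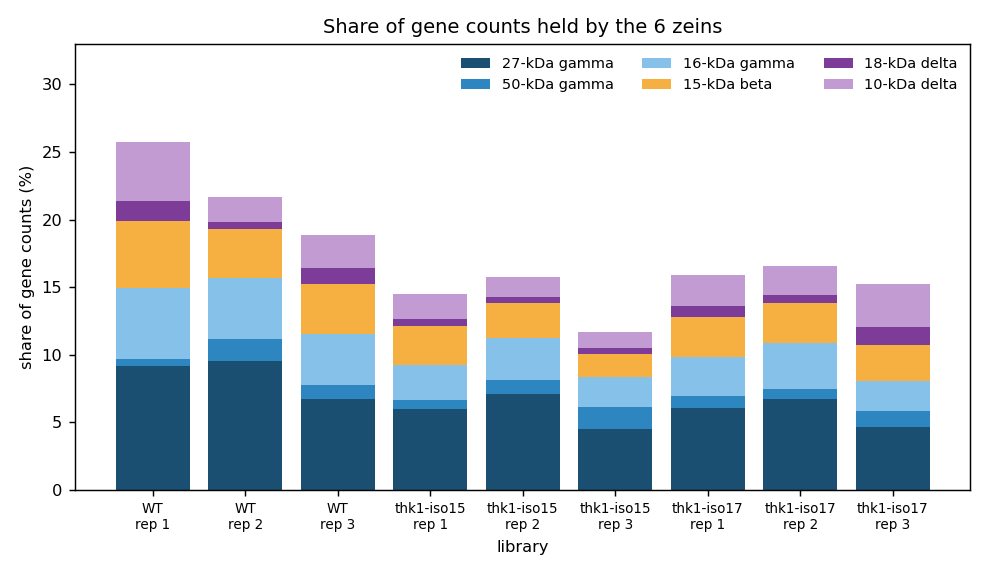
Share of gene counts (percent, vertical axis from 0) held by each of the 6 zeins in each of the 9 libraries, stacked by zein and not scaled for gene length. The WT bars end between 18.9% and 25.7% and the mutant bars between 11.7% and 16.6%.

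The size of the fall depended on the scale. Without TMM factors, per total gene counts, the median log2 fold change of all genes moved up by 0.26 in thk1-iso15, 0.41 in thk1-iso17 and 0.33 with both alleles. The median of the 6 zeins with both alleles was then -0.60 in place of -0.94, and 2 of the 6 were called in place of 5. Calls over all genes, in either direction, rose from 4943 to 6671. On that scale edgeR called 3 of 6 in thk1-iso15 and 0 of 6 in thk1-iso17, where 3 had an unadjusted p under 0.05. Over all genes the calls rose from 3642 to 4329 in thk1-iso15 and from 3352 to 6053 in thk1-iso17. In thk1-iso17, DESeq2 with its own scaling and voom with the TMM factors called 3 each. Over all genes they called 4753 and 3413. Computing the TMM factors without the 6 zeins left the counts at 4, 2 and 5.

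The make-up of the zein RNA overlapped between genotypes in each class. Of the counts of all 6 zeins, the gamma zeins took 63.8% ± 7.31 (SD, n = 3 libraries) in WT. Their part was 68.7% ± 4.44 in thk1-iso15 libraries and 60.1% ± 6.51 in those of thk1-iso17. In the same order of genotypes the beta zein took 18.6% ± 1.40, 17.1% ± 2.45 and 17.9% ± 0.846, and the delta zeins 17.6% ± 6.05, 14.2% ± 2.33 and 22% ± 7.10. Within-library ratios do not depend on the scaling of libraries. Of 15 pairs of zeins, 0 differed in ratio between the 6 mutant and the 3 WT libraries at an unadjusted p under 0.05 (two-sided exact permutation test), and so 0 after adjustment over the pairs. The smallest p was 0.0833, for the 27-kDa to the 16-kDa gamma zein, whose log2 ratio was 0.90 ± 0.157 in WT and 1.08 ± 0.101 in the mutants. The largest shift was that of the 50-kDa to the 16-kDa gamma zein, 0.77 higher on the log2 scale in the mutants (exact permutation p = 0.214). Between the alleles, 2 of the 15 ratios did not overlap. The ratios of the 27-kDa gamma and of the 15-kDa beta zein to the 10-kDa delta zein were lower in thk1-iso17, with log2 differences of -0.73 and -0.45. The exact permutation p was 0.1 in both, the smallest that 3 against 3 libraries allow. No unequal fall among the 6 zeins was thus detected against WT, which does not show that they fell alike. Without WT replicate 2, 1 of the 15 pairs had an unadjusted p under 0.05 and 0 passed after adjustment. With 2 WT libraries the smallest exact permutation p is 0.0357, so 1 pair alone could not pass adjustment over the 15.

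The zeins fell into different patterns across the 9 libraries. Likeness was measured as the root mean square difference of log2 CPM, each gene centred on its own mean, among 10690 genes with at least 10 CPM on average. This is a description, and the profiles share libraries, depth and scaling. The 27-kDa gamma zein was the gene closest to the 16-kDa gamma zein of all 10689 others, at 0.14 log2 units. In the other direction the 16-kDa was the second closest to the 27-kDa gamma zein. The 15-kDa beta zein lay 0.19 from the 16-kDa gamma zein, rank 12. The 10-kDa delta was the closest of all genes to the 18-kDa delta zein, at 0.28, and the 18-kDa ranked 10 from the 10-kDa delta zein. The 50-kDa gamma zein was far from all of them. The 27-kDa gamma zein ranked 8404 from it, at 0.69, and was the nearest of the 5.

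**Figure D4:**
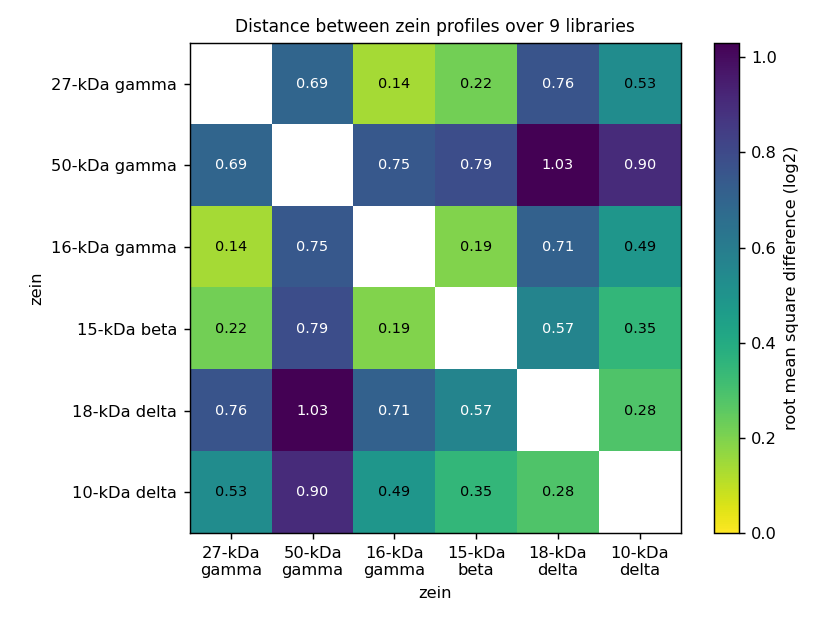
Distance between the profiles of each pair of zeins over the 9 libraries, as the root mean square difference of centred log2 CPM (colour and printed value, in log2 units). The small values join the 27-kDa gamma, 16-kDa gamma and 15-kDa beta zeins (0.14 to 0.22) and the delta zeins (0.28), and the row of the 50-kDa gamma zein holds values from 0.69 to 1.03.

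The genes outside the family with the profile closest to the mean of the 6 zeins were Zm00001d034604 and Zm00001d011779, at distances of 0.073 and 0.080 log2 units over 9 libraries. The files do not pair these identifiers with names. Zm00001d034604 stood at 65.3, 56.0 and 47.7 CPM in WT, 25.8, 28.0 and 30.7 CPM in thk1-iso15, and 31.9, 33.8 and 32.2 CPM in thk1-iso17. Zm00001d011779 stood between 51.2 and 57.9 CPM in WT and between 26.8 and 31.8 CPM in the mutants. Their log2 fold changes with both alleles, -0.89 and -0.88, follow from the choice by profile and are given as a description, with no test.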

How the data were processed

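The authors deposited raw counts per gene identifier for each library, plus 5 summary lines, which were left out of all sums and fits. The submitters' processing notes name the build B73 RefGen_v4 and the tools HTSeq 0.11.1, StringTie 1.3.6, SAMtools 1.9 and HISAT2 2.1.0. The sources used here give no settings, annotation or strand, so reads of overlapping genes or near-identical copies remain uncertain.

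The deposited counts went into edgeR 4.0.16 under R 4.3.3 (filterByExpr, TMM, glmQLFit, glmQLFTest), with 3 groups and all 9 libraries in 1 fit. A call needed an adjusted p (Benjamini-Hochberg, 23529 genes) under 0.05. The SE is the size of the log2 fold change over the root of its F statistic. Shares and ratios were compared by exact permutation, two-sided, where 3 libraries against 3 cannot go below p = 0.1. The procedure was tested on simulated data. Alternatives included DESeq2 1.42.0 and voom in limma 3.58.1.

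The 6 genes, their names and all lists were chosen with earlier results of these data known. The RefSeq gene table matched 0 of 44146 nuclear gene identifiers, so pathway and marker lists gave no value. Named genes were the 6 zeins and the 2 other genes nearest to their mean profile. Scaling by total counts and shares without the zeins were alternatives chosen after seeing the data.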

Additional observations from a re-analysis of the deposited data

How the results depend on the processing

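The count of zeins called stayed within 1.5 times of 4, 2 and 5 (thk1-iso15, thk1-iso17, both alleles) with RLE factors, TMM factors without the 100 most abundant genes or without the zeins, DESeq2, voom, no filter on counts and a filter of 1 CPM in 3 libraries. In thk1-iso17 it was 0 with upper quartile factors, with only the groups compared and per total gene counts, and per total gene counts it was 2 with both alleles. Over all genes, the fits that gave 0 in thk1-iso17 called 3304, 3145 and 6053, against 3352 in the main fit. Leaving out 1 library gave counts from 0 to 4 in thk1-iso15, 0 to 2 in thk1-iso17 and 0 to 4 with both alleles. These fits had fewer libraries, and most also called fewer of all genes. In some, calls over all genes rose while those of zeins fell. Without thk1-iso15 replicate 3, all calls in thk1-iso15 went from 3642 to 3944 and zeins from 4 to 1. Without thk1-iso17 replicate 3, all calls in thk1-iso17 went from 3352 to 3946 and zeins from 2 to 0. With both alleles, leaving out thk1-iso15 replicate 3 gave 5456 calls in place of 4943, and 2 zeins in place of 5.

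The 50-kDa gamma zein changed sign. In thk1-iso15 its log2 fold change was 0.062 per total gene counts and ranged from -0.65 to 0.37 when 1 library was left out. With both alleles the range was -0.74 to 0.17, and for the log2 ratio of its shares -0.35 to 0.41. Between the alleles the 16-kDa gamma zein was at 0.0085 with upper quartile factors and 0.11 per total gene counts. The ranges without 1 library were -0.27 to 0.17 for the 16-kDa, -0.34 to 0.039 for the 27-kDa and -0.69 to 0.049 for the 50-kDa gamma zein, and -0.016 to 0.22 for the 15-kDa beta zein. None of these was called. The causes were not tested.

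With the replicate number as a block, 5, 3, 5 and 0 zeins were called in thk1-iso15, thk1-iso17, both alleles and between the alleles. Over all genes 3971, 3761, 5373 and 33 were called, against 3642, 3352, 4943 and 26 without the block. The 27-kDa gamma zein was then called in each allele. The edgeR adjusted p of that zein was then 0.0415 for thk1-iso15 and 0.0248 for thk1-iso17. Same-numbered libraries share a code in the deposited names, whose meaning is not given in the sources used here, so whether they share a batch is not known. The correlations of their deviations ran from -0.11 to 0.24, and 3 of 9 were over 0.1. Those of libraries with different numbers ran from -0.23 to 0.12. A shared batch was not tested, and the main fit did not treat the numbers as pairs. The 27-kDa gamma zein alone had the order replicate 2, 1, 3 from high to low in all 3 genotypes. Of the 15 ratios, 0 moved 1 way in all 6 same-numbered differences. The summed share in the mutants was 61.8% to 73.7% of WT over all alternatives, and 67.7% as reported. Counting error was small beside the spread between replicates for these genes.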

Other observations

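The 50-kDa gamma and the 18-kDa delta zein were the least alike of the 6 across libraries, with a distance of 1.03 log2 units. The log2 ratio of their counts was -1.45, 1.7 and -0.19 in WT replicates 1, 2 and 3. For thk1-iso15 the values were 0.30, 1.40 and 2.05. For thk1-iso17 they were 0.17, 0.38 and -0.18. The WT libraries alone thus spanned most of the range seen in all 9, and the SD of this ratio in WT was 1.59. WT replicate 2 held the highest 50-kDa gamma zein level and the lowest 18-kDa and 10-kDa delta zein levels of the WT libraries. This pair was chosen after its values were seen.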
